A study of Mus musculus with 20 samples.

Results

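Hearts of mice that had changed in both respects the study varied, genotype and training, were compared with hearts of mice that had changed in neither. The trained labelled knockout group (KO_Ex) held mice labelled as having no PGC-1α in cardiomyocytes and given 6 weeks of endurance training on a voluntary running wheel. The sedentary wild-type group (WT_Sed) held wild-type mice kept without training. Between these ends stand 2 further groups, sedentary mice with the knockout label (KO_Sed) and trained wild-type mice (WT_Ex). All mice were male and 14 to 16 weeks old, with 5 mice in each of the 4 groups, and 1 library of poly-A selected, strand-specific RNA was made from a small piece of each heart. The labels give neither the driver that deletes the gene nor the deleted exon, and all libraries carry 1 batch label. The comparison therefore rests on 10 of the 20 libraries, and the other 10 show where each change alone left a gene. It was run on the 13723 of 25851 deposited genes whose mean was at least 0.5 FPKM (fragments per kilobase of exon scaled to library size, the deposited unit) over the 20 libraries.

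PGC-1α, encoded by Ppargc1a, is a coactivator that joins nuclear receptors such as ERRα (Esrra) and PPARα on the promoters of mitochondrial genes, and it raises the capacity for fatty acid oxidation and oxidative phosphorylation in heart and skeletal muscle. Endurance training usually raises its activity in muscle. GDF15, named in the title of the series beside PGC-1α, is a secreted cytokine that stressed tissue releases and that transcription factors such as ATF4 and p53 switch on. The joint comparison asks how far the heart of a trained mouse with the knockout label stands from that of a sedentary wild-type mouse. Setting the other groups between these ends shows which part of that distance is already present with the genotype label or with training alone.

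Depth was 18.3 to 30.4 M recovered reads per library in KO_Ex and 16.9 to 24.96 M in WT_Sed, with 14.2 to 27.2 M in the groups between. Transcripts of the mitochondrial genome took 11.4 to 17.9% of reads in KO_Ex and 17.9 to 23.5% in WT_Sed. Cardiomyocyte markers were the most abundant marker list in every group. Some libraries stood apart. The atrial myosin light chain Myl7 was at 2055 and 1355 FPKM in KO_Ex libraries 2 and 5 and at 1975 and 3484 FPKM in WT_Ex libraries 4 and 5, and at no more than 97.1 FPKM in any other library. Adipocyte Adipoq was at 36.7 and 3.94 FPKM in that KO_Ex pair and at 27.2 and 9.65 FPKM in that WT_Ex pair, and under 1 FPKM elsewhere. The clock gene Arntl was above 2 FPKM in KO_Sed library 1 and in WT_Sed libraries 1 to 4, and at or under 1.16 FPKM in the other 15, every KO_Ex library among them. Without these 5 libraries the WT_Sed end is library 5 alone, so the joint change and this split of the libraries cannot be told apart by leaving libraries out. A test without them has 1 library in WT_Sed, assumed to vary like the other groups. A call lost there can therefore come from the smaller group. For named genes whose joint call was lost there, the joint fold change of that fit is given. Interactions of single genes are given with all libraries only. In bulk tissue, fewer cells of a type and less RNA per cell cannot be told apart.

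Ppargc1a (ENSMUSG00000029167, chr5:51454250-51567726, minus strand, GRCm38) was measured at 23.01, 26.9, 21.2, 18.7 and 22.9 FPKM in KO_Ex libraries 1 to 5, 27.9, 18.8, 23.03, 18.2 and 26.5 in KO_Sed, 21.9, 10.4, 17.4, 11.2 and 17.98 in WT_Ex and 14.8, 9.39, 15.4, 12.2 and 9.48 in WT_Sed. All KO_Ex libraries lay above all WT_Sed libraries, and KO_Sed libraries overlapped the KO_Ex range. Its level was therefore higher, not lower, at the end with the knockout label (log2 fold change 0.87 ± 0.19 (SE), limma adjusted p = 0.00116, with p = 0.00794 in an exact permutation test of these 10 libraries, two-sided, the lowest p that test can give). These values sum over all exons, so they neither back nor refute a deletion of part of the gene, and the label is kept here as a label. Training alone gave a WT_Ex mean 0.33 above WT_Sed on the log2 scale, which did not pass the test (limma adjusted p = 0.273).

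Gdf15 (ENSMUSG00000038508, chr8:70629393-70632456, minus strand) was measured at 36.03, 15.6, 44.9, 48.2 and 12.2 FPKM in KO_Ex libraries 1 to 5, 18.02, 14.8, 11.6, 22.6 and 18.6 in KO_Sed, 1.78, 1.15, 3.17, 1.65 and 0.824 in WT_Ex and 2.37, 1.15, 1.13, 1.45 and 0.729 in WT_Sed. Every KO_Ex and KO_Sed library lay above every WT_Ex and WT_Sed library, and KO_Ex libraries 2 and 5, those with high Myl7, held the lowest KO_Ex values. The joint log2 fold change was 3.95 ± 0.35 (SE), limma adjusted p = 6.17e-08 (exact permutation p = 0.00794, again the lowest possible). On a scale with the WT_Sed mean at 0 and the KO_Ex mean at 1, called its place from here on, KO_Sed stood at 0.83 and WT_Ex at 0.05. In the 10 libraries of neither end, Gdf15 was higher in KO_Sed than in WT_Ex by 3.05 ± 0.35 (SE), limma adjusted p = 1.93e-05. Training beyond the label, KO_Ex against KO_Sed, gave a difference of 0.69 that did not pass the test (limma adjusted p = 0.153).

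Across the heart transcriptome, the machinery of mitochondrial energy supply fell, and most of the matrix, inflammatory, cell cycle and fetal heart genes listed rose. Of the 13723 genes tested, 2450 were higher in KO_Ex than WT_Sed (17.9%) and 2898 were lower (21.1%) at a limma adjusted p under 0.05. At least a 2-fold change was shown by 514 of the higher genes (3.75% of genes tested) and 321 of the lower ones (2.34%). The 5 KO_Ex values lay above the 5 WT_Sed values without overlap for 1788 genes (13%) and below them for 2114 (15.4%). The median log2 fold change over all genes was -0.02. It was 0.29 when each library was rescaled to TPM and 0.12 when the libraries were scaled to a common sum without mitochondrial transcripts, and 86.4% and 69.2% of the calls were then higher ones, against 45.8% with the deposited scaling. The split between higher and lower genes thus depends on the scaling. Without the 5 high-Arntl libraries 1083 genes were higher and 1609 lower, of which 936 and 1455 were also called with all libraries. Every list or marker count below with the deposited scaling is to be read beside 17.9% higher and 21.1% lower over all genes. For the lists below, each count of 0 higher or 0 lower genes was also 0 at an unadjusted limma p under 0.05 and with limma voom on the recovered reads.

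**Figure D1:**
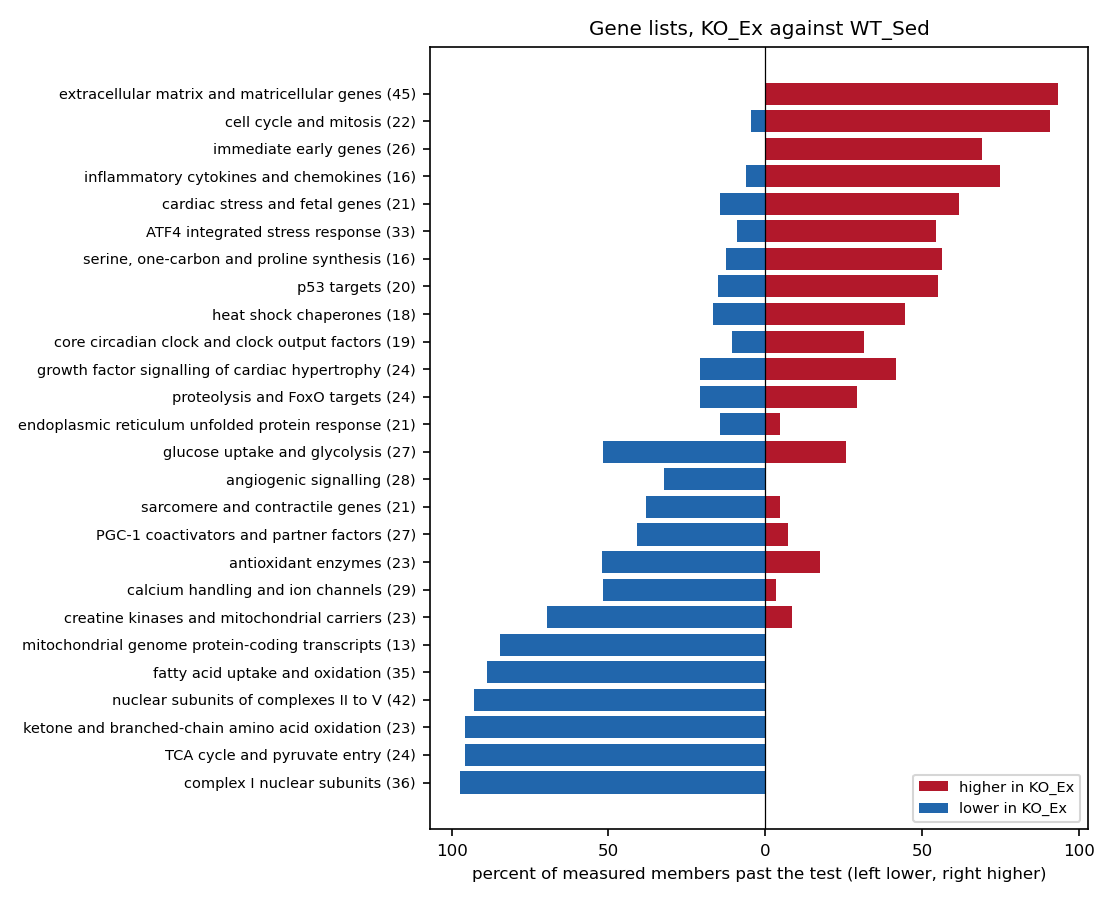
Percent of the measured members of each pathway list (number in parentheses) that were higher (right) or lower (left) in KO_Ex than WT_Sed at a limma adjusted p under 0.05. Bars of the respiratory chain, TCA cycle and fuel oxidation lists run almost fully to the left, and those of the matrix and cell cycle lists almost fully to the right, beside 17.9% higher and 21.1% lower over all genes.

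At the median of the genes called in the joint comparison, neither group between stood at the KO_Ex end. For genes higher in KO_Ex, the median place was 0.36 for KO_Sed and 0.35 for WT_Ex, and for genes lower in KO_Ex it was 0.36 for KO_Sed and 0.30 for WT_Ex. The WT_Ex values rest in part on the libraries with high Myl7. Without those 4 libraries the median place of the higher genes was 0.29 for KO_Sed and 0.19 for WT_Ex, and that of the lower genes was 0.31 for KO_Sed and 0.16 for WT_Ex. With a place of 0.5 or more taken as near the KO_Ex end, 612 (24.98%) of the 2450 higher genes were near it in KO_Sed only, 512 (20.9%) in WT_Ex only, 318 (13.0%) in both and 1008 (41.1%) in neither. Of the lower genes, 564 (19.5%) were near it in KO_Sed only, 439 (15.1%) in WT_Ex only, 434 (15.0%) in both and 1461 (50.4%) in neither. A gene that was near the KO_Ex end in neither group is called a gene of the combined state below, which says only where the group means lie. The places share both ends with the choice of genes and are a description.

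Taken by library, the median place of the higher genes was 0.87 to 1.22 in KO_Ex, 0.17 to 0.47 in KO_Sed, 0.12 to 0.50 in WT_Ex and -0.15 to 0.10 in WT_Sed. KO_Sed library 1, the one with high Arntl, was lowest in its group, and WT_Ex libraries 1 and 3 stood at 0.12 and 0.19 against 0.41 to 0.50 in WT_Ex libraries 2, 4 and 5. For the lower genes the KO_Sed libraries were close together at 0.33 to 0.38, while WT_Ex libraries ran between 0.13 and 0.45, with libraries 1 and 3 again the lowest. No library of either group between reached the KO_Ex range. The genes were chosen for their difference between the ends, and the end means set the scale. This gap is therefore a description and no test.

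**Figure D2:**
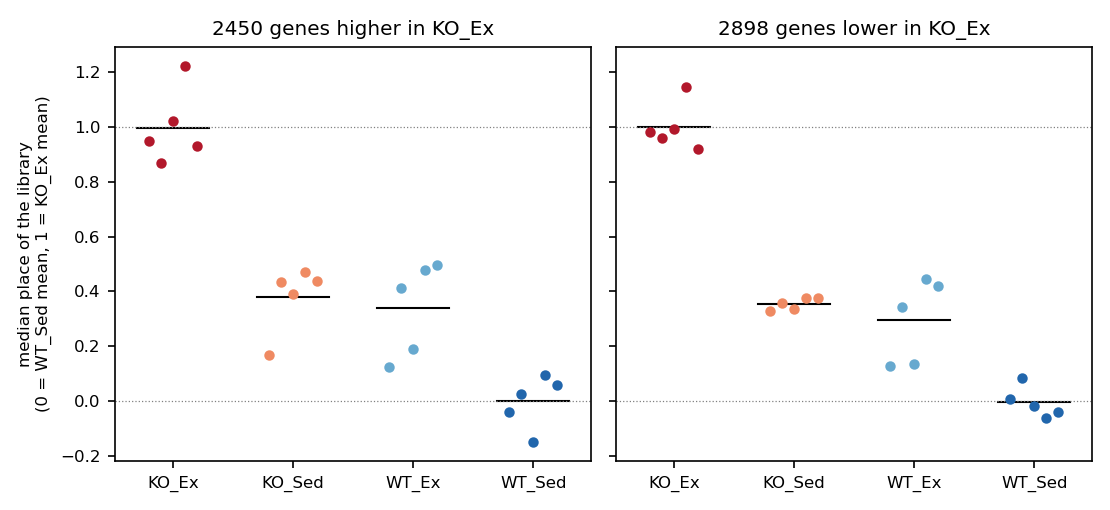
Median place of each library between the WT_Sed mean (0) and the KO_Ex mean (1), for the 2450 genes higher (left) and the 2898 genes lower (right) in KO_Ex. Points are libraries, 5 a group, and lines are group means. KO_Sed and WT_Ex libraries lie at or under 0.50 in both panels, and WT_Ex libraries are the more spread.

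The contrast of KO_Sed with WT_Ex uses libraries of neither end, with a spread estimated over all 4 groups. It gave 1020 genes higher in KO_Sed (7.43% of genes tested) and 799 lower (5.82%), and with only those 10 libraries in the fit 707 were higher and 572 lower. Among the 2450 genes higher in KO_Ex, 334 (13.6%) were also higher in KO_Sed than in WT_Ex, the direction that goes with the genotype label, and 168 (6.86%) were lower, the direction that goes with training. The 334 were 32.75% of all genes higher in KO_Sed than WT_Ex. Among the 2898 genes lower in KO_Ex, 332 (11.5%, or 41.6% of the 799) were lower in KO_Sed than in WT_Ex and 153 (5.28%) were higher. Most genes with a joint change were thus not called between the groups in the middle, which at this depth and group size does not show that those groups were alike.

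**Figure D3:**
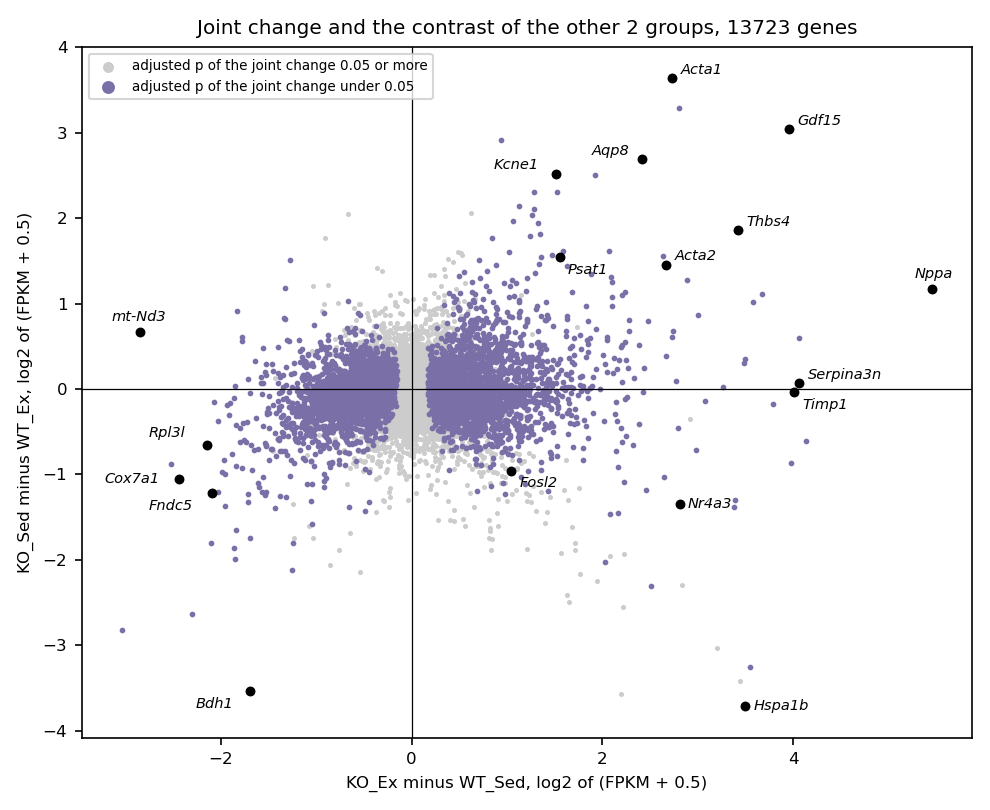
Log2 difference KO_Ex minus WT_Sed (horizontal) and KO_Sed minus WT_Ex (vertical) for 13723 genes, with purple points past the test of the joint change. Gdf15, Acta1 and Aqp8 lie at the upper right and Fndc5 and Cox7a1 at the lower left, where label and joint change go together. Hspa1b and Nr4a3 lie at the lower right, and Timp1 and Serpina3n lie near the horizontal line.

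Whether the joint change departed from the sum of the single changes was tested as an interaction on the log2 scale, (KO_Ex minus WT_Ex) minus (KO_Sed minus WT_Sed). It was called higher for 319 genes (2.32%) and lower for 686 (5%), 1005 in all. This count moved with single libraries. It was 1607 without WT_Sed library 5 and 1698 without KO_Sed library 1. It was 504, 492 and 588 without WT_Sed library 1, 2 or 3, and 487, 639 and 659 without KO_Sed library 3, 4 or 5. It was 564 without WT_Ex library 3, and 529, 480 and 504 without KO_Ex library 1, 3 or 4. With log2 Arntl as a covariate it was 267. Without the 5 libraries with high Arntl it was 1, in a fit with 1 WT_Sed library. Over the 319 genes the median interaction in that fit was 0.63 against 0.76 with all libraries, and over the 686 it was -0.43 against -0.54. The median SE was 0.26 against 0.19 and 0.17 against 0.13. These genes were chosen by the fit with all libraries, which shares libraries with the smaller fit. A similar size there is therefore no test of the interaction. Interactions are therefore given below as values of these 20 libraries.

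Respiratory chain genes were lower in KO_Ex almost throughout. Of 36 nuclear-encoded subunits of complex I, the NADH dehydrogenase that feeds electrons into the chain, 35 were lower in KO_Ex and 0 higher, with a median log2 fold change of -0.89. Of 42 nuclear subunits of complexes II to V, which carry electrons to oxygen and make ATP, 39 were lower and 0 higher, with a median of -0.87. Over all genes 21.1% were lower. All 35 complex I genes, and 38 of the 39 others, belonged to the combined state, beside 50.4% of all falling genes.

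Ndufs3, a core complex I subunit, was at 75.2, 76.7, 75.2, 69.3 and 80.03 FPKM in KO_Ex libraries 1 to 5, 123, 123, 138, 127 and 126 in KO_Sed, 134, 151, 156, 132 and 123 in WT_Ex and 142, 138, 147, 154 and 160.0 in WT_Sed. All KO_Ex libraries lay below all libraries of the other 3 groups, and KO_Sed libraries lay at or just below the WT_Sed range. The joint log2 fold change was -0.97 ± 0.07 (SE), limma adjusted p = 5.11e-09, with KO_Sed at a place of 0.22 and WT_Ex at 0.10. Atp5b, the catalytic β subunit of ATP synthase, was at 768, 791, 754, 718 and 804 FPKM in KO_Ex libraries 1 to 5, against 1289, 1287, 1416, 1517 and 1442 FPKM in WT_Sed libraries, again without overlap (-0.86 ± 0.07 (SE), limma adjusted p = 1.72e-08). Accessory complex I subunits Ndufa9 and Ndufb4 fell by 0.97 and 0.95 on the log2 scale, the Rieske protein of complex III Uqcrfs1 by 0.98, and Atp5g3, a c-ring subunit of ATP synthase, by 1.07.

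The mean over the complex I list, as a log2 difference from the WT_Sed mean, was -1.03 to -0.72 in KO_Ex libraries, -0.31 to -0.01 in KO_Sed, -0.23 to 0.21 in WT_Ex and -0.09 to 0.11 in WT_Sed. The KO_Ex libraries thus lay apart from those of every other group, whose ranges ran into each other. Medians of the single steps in this list were -0.21 for KO_Sed and -0.05 for WT_Ex against WT_Sed. The interaction was lower for 34 of 36 complex I genes and for 37 of the 42 in complexes II to V, against 5% of all genes. These counts were 6 and 7 with TPM scaling, 6 and 9 with a common sum without mitochondrial transcripts, and 19 and 16 with the Arntl covariate (limma in each case). Without the 5 high-Arntl libraries none of them passed, and the median interaction was -0.50 in complex I and -0.45 in complexes II to V, against -0.63 and -0.57 with all libraries (limma, 1 WT_Sed library). The joint decrease itself was called for 31 to 35 complex I genes under each of these settings.

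Promoters are shown for 3 of the falling genes because they hold the ERR core motif, the sequence that estrogen-related receptors recognise when PGC-1α works with them. Each runs over 250 bases before and 50 bases after the gene's start, 5′ to 3′ on the gene's strand, from RefSeq on GRCm38.p6, with AAGGTCA or its reverse complement in capitals. Ndufb4 lies at chr16:37654319-37654618, minus strand, Atp5g3 at chr2:73911277-73911576, minus strand and Perm1, a regulator of muscle mitochondrial genes, at chr4:156215677-156215976, plus strand. They were picked for their match, with their values known.
Ndufb4: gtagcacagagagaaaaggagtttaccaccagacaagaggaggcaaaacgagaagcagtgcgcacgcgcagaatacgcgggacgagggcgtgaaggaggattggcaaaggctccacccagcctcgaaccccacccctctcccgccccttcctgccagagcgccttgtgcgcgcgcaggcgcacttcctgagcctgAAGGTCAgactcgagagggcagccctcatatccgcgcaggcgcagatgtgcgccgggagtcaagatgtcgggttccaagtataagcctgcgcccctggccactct
Atp5g3: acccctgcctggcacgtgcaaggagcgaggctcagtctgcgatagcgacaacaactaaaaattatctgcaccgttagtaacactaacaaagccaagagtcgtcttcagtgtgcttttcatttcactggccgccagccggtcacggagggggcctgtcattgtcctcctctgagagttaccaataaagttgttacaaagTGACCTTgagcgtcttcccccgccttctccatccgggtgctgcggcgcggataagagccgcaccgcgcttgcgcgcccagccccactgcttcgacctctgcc
Perm1: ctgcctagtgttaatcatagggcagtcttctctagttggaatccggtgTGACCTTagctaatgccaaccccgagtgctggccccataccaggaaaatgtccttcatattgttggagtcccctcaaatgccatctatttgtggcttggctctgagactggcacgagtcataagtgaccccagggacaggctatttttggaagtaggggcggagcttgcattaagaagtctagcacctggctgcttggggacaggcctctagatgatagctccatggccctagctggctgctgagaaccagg
AAGGTCA, searched on both strands, stood in 305 of the 9706 promoters matched to tested genes (3.14%), in 6 of 33 promoters of complexes II to V (18.2%), in 3 of 32 of complex I (9.38%) and in 54 of 1092 promoters of genes of the combined state that fell (4.95%). Most falling respiratory chain genes therefore held no such letters in this window. A match is a stretch of letters, and binding was not measured.

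The fuels that feed the chain showed the same direction. In the TCA cycle and pyruvate entry list 23 of 24 genes were lower and 0 higher (median log2 fold change -0.91), in fatty acid uptake and oxidation 31 of 35 and 0 (-1.02), and in ketone and branched-chain amino acid oxidation 22 of 23 and 0 (-1.13). Genes of the combined state made up 17, 25 and 12 of the falling genes in these lists, beside 50.4% of all falling genes. The 12 of 22 in the last list are near that share. Libraries of KO_Ex lay below all others in their list means, at -1.05 to -0.82 for the TCA list, beside -0.44 to -0.36 in KO_Sed, -0.33 to 0.01 in WT_Ex and -0.10 to 0.08 in WT_Sed.

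Mpc2, a subunit of the carrier that brings pyruvate into mitochondria, was at 14.3, 15.2, 13.9, 12.5 and 13.7 FPKM in KO_Ex libraries 1 to 5, 23.3, 23.2, 25.9, 23.7 and 21.6 in KO_Sed, 34.5, 43.1, 38.8, 34.3 and 29.8 in WT_Ex and 38.1, 38.2, 35.4, 36.1 and 38.4 in WT_Sed. KO_Ex libraries were lowest, KO_Sed libraries came next without touching either neighbour, and WT_Ex and WT_Sed libraries overlapped (-1.39 ± 0.08 (SE), limma adjusted p = 9.84e-10, place of KO_Sed 0.47). Malate dehydrogenase Mdh2 averaged 190.5 ± 10.1 FPKM in KO_Ex and 368 ± 31.97 FPKM in WT_Sed (SD, n = 5 each), a log2 fold change of -0.94, limma adjusted p = 1.32e-08. For fatty acids, Hadh, the dehydrogenase of the β-oxidation spiral for medium and short chains, ranged over 35.4 to 62.1 FPKM in KO_Ex, 85.5 to 93.6 in KO_Sed, 90.2 to 123 in WT_Ex and 126 to 146 in WT_Sed, and Echs1, the hydratase of that spiral, over 17.3 to 22 FPKM in KO_Ex, 29.1 to 33.6 in KO_Sed, 36.8 to 46.3 in WT_Ex and 45.7 to 52.6 in WT_Sed. In both genes the KO_Ex libraries lay below, and the WT_Sed libraries above, every KO_Sed library. Branched-chain amino acid genes fell with them, Bckdha of the branched-chain dehydrogenase by 1.43 and Ivd of leucine breakdown by 1.46 on the log2 scale.

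Bdh1, which turns the ketone body β-hydroxybutyrate into acetoacetate, followed another course. It was at 6.17, 5.99, 10.01, 8.29 and 3.102 FPKM in KO_Ex libraries 1 to 5, 1.85, 3.21, 2.99, 2.18 and 2.33 in KO_Sed, 50.2, 17.02, 51.7, 30.1 and 33.4 in WT_Ex and 52.3, 55.4, 17.4, 12.3 and 7.05 in WT_Sed. The KO_Sed libraries were low, at or under 3.21 FPKM, and KO_Ex library 5 lay among them, while WT_Sed libraries 1 and 2 were far above WT_Sed libraries 3 to 5. KO_Ex libraries 3 and 4 lay above WT_Sed library 5, so the ends overlapped. The joint log2 fold change was -1.69 ± 0.45 (SE), limma adjusted p = 0.00576, and it no longer passed without the high-Myl7 libraries, with the Arntl covariate or without the high-Arntl libraries, where it was -0.15. KO_Sed stood beyond the KO_Ex end at a place of 1.71, and KO_Sed was lower than WT_Ex by 3.54 ± 0.45 (SE) on the log2 scale (limma adjusted p = 6.98e-05).

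A smaller set of energy genes fell with the genotype label already. Cox7a1, the heart and muscle isoform of a complex IV subunit, was at 144, 145, 121, 91.8 and 147 FPKM in KO_Ex libraries 1 to 5, 300.1, 298, 344, 288 and 239 in KO_Sed, 525, 809.8, 647, 576 and 518 in WT_Ex and 725, 684, 656, 613 and 812 in WT_Sed. KO_Ex, KO_Sed and the wild-type groups formed 3 separate levels, with WT_Ex and WT_Sed overlapping. The joint change was -2.44 ± 0.14 (SE), limma adjusted p = 9.84e-10, and KO_Sed stood 0.51 of the way to it.

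Me3, a mitochondrial malic enzyme, was at 1.58, 1.64, 1.71, 1.57 and 1.43 FPKM in KO_Ex libraries 1 to 5, 1.88, 2.22, 2.03, 1.99 and 2.05 in KO_Sed, 5.54, 5.79, 6.04, 4.56 and 4.96 in WT_Ex and 5.46, 5.399, 6.19, 5.41 and 5.17 in WT_Sed. Its KO_Sed libraries lay just above the KO_Ex ones and WT_Ex overlapped WT_Sed (joint change -1.53 ± 0.07 (SE), limma adjusted p = 1.68e-10, place of KO_Sed 0.82). Esrra, the nuclear receptor partner of PGC-1α, averaged 48.6 ± 1.59 FPKM in KO_Ex, 62.2 ± 1.27 in KO_Sed, 87.7 ± 3.47 in WT_Ex and 86.8 ± 4.98 in WT_Sed (SD, n = 5 each), a joint change of -0.83, limma adjusted p = 1.09e-09. Ckmt2, the mitochondrial creatine kinase of muscle, fell by 1.47 on the log2 scale with KO_Sed at a place of 0.52, and Fndc5, the precursor of the secreted peptide irisin, fell by 2.10 with KO_Sed at 0.64. In KO_Sed against WT_Ex all 5 genes were lower too, by 1.05, 1.21, 0.49, 0.70 and 1.22 on the log2 scale in the order named.

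Within the list of PGC-1 coactivators and partner factors, 11 of 27 genes were lower and 2 higher, beside 21.1% and 17.9% of all genes. The median log2 fold change was -0.29, and under TPM scaling 6 were lower and 6 higher with a median of 0.05. Perm1, whose promoter is shown above, averaged 56.2 ± 5.19 FPKM in KO_Ex, 81.1 ± 8.27 in KO_Sed, 98.6 ± 24.5 in WT_Ex and 121 ± 13.6 in WT_Sed, and Tfam, which packages and transcribes mitochondrial DNA, averaged 6.63 ± 0.708 FPKM in KO_Ex, 8.31 ± 0.449 in KO_Sed, 8.21 ± 0.964 in WT_Ex and 10.7 ± 0.724 in WT_Sed (SD, n = 5 each). Tfam stood midway in both single-change groups, at 0.53 in KO_Sed and 0.56 in WT_Ex. Creatine kinases and mitochondrial carriers fell in 16 of 23 cases and rose in 2 (median -0.85).

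Transcripts of the mitochondrial genome itself were lower in 11 of 13 cases and higher in 0, with a median of -0.76, and none passed the test of the interaction. The transcript mt-Cytb, for the cytochrome of complex III, averaged 18914 ± 3528 FPKM in KO_Ex, 26263 ± 1078 in KO_Sed, 26941 ± 3757 in WT_Ex and 31579 ± 3164 in WT_Sed (SD, n = 5 each). Its fall was 0.76 on the log2 scale (limma adjusted p = 0.000147), with places of 0.35 in KO_Sed and 0.31 in WT_Ex. The mean over the 13 transcripts split the WT_Ex libraries, at -0.10 and -0.22 in libraries 1 and 3 and -0.85 to -0.75 in libraries 2, 4 and 5. In KO_Sed libraries it was -0.65 to -0.44. The short transcript mt-Nd3 fell by 2.84 and ran over 14.2 to 80.6 FPKM in KO_Ex, 48.4 to 196 in KO_Sed, 45.9 to 97.3 in WT_Ex and 123 to 614 in WT_Sed, so it varied widely among the libraries of a group. Without the 5 high-Arntl libraries 6 of the 13 were called, with a median of -0.74.

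Glycolysis showed no shared direction. Of 27 genes of glucose uptake and glycolysis, 14 were lower and 7 higher, beside 21.1% and 17.9% of all genes. The median was -0.23, and under TPM scaling 8 were lower and 11 higher with a median of 0.13. Ldhb, the lactate dehydrogenase subunit typical of heart, was at 415, 429.7, 410.5, 362 and 465 FPKM in KO_Ex libraries 1 to 5, against 1104, 1092, 1032, 1121 and 1107 FPKM in WT_Sed libraries, with no overlap (-1.39 ± 0.08 (SE), limma adjusted p = 1.09e-09). Pfkfb1, an isoform of the enzyme that sets fructose 2,6-bisphosphate, averaged 0.947 ± 0.588 FPKM in KO_Ex, 1.42 ± 0.429 in KO_Sed, 5.74 ± 2.69 in WT_Ex and 4.48 ± 1.29 in WT_Sed (SD, n = 5 each). Every library of the groups with the knockout label lay under every wild-type library, and the joint change was -1.84 ± 0.27 (SE), limma adjusted p = 1.83e-05, with KO_Sed at a place of 0.75.

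**Figure D4:**
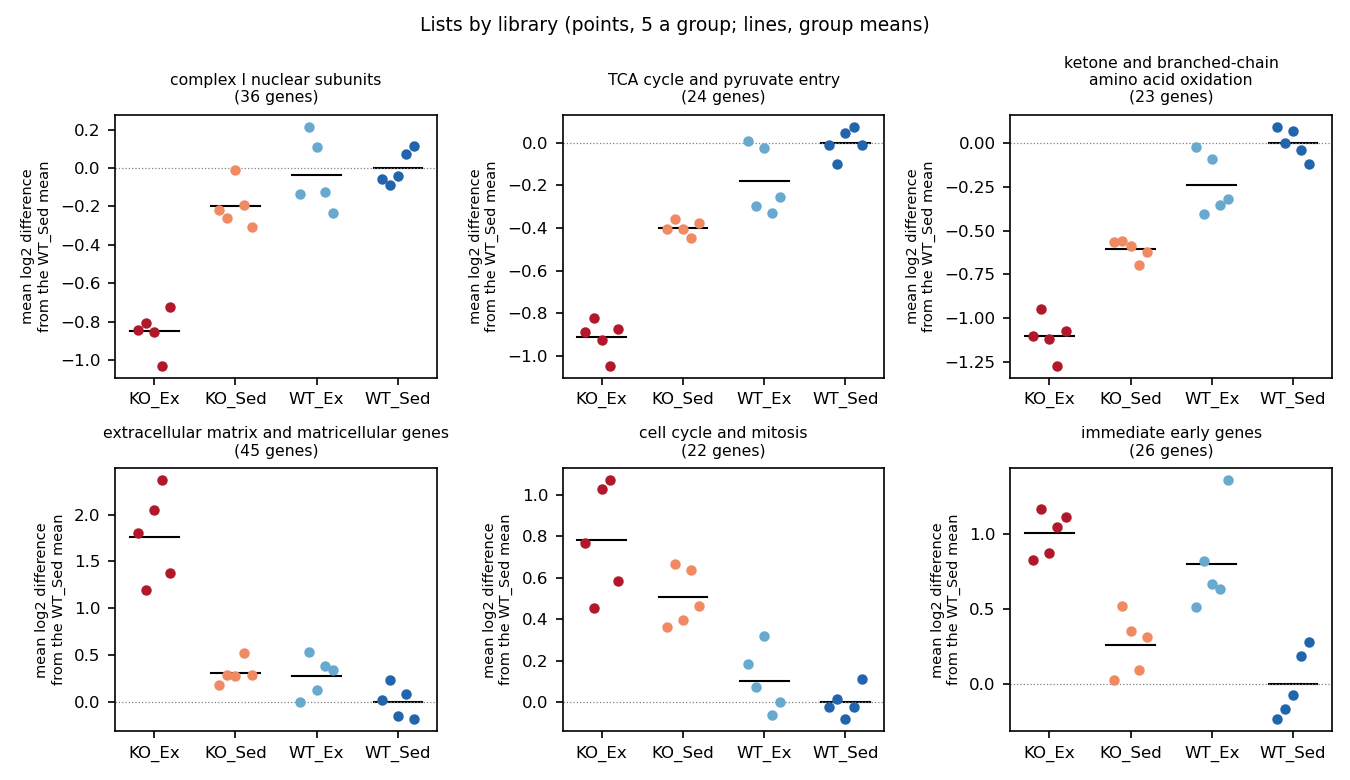
Mean log2 difference from the WT_Sed mean over the measured genes of 6 lists, per library (points, 5 a group, lines are group means). KO_Ex libraries lie apart from the rest in the complex I, TCA and matrix panels, KO_Sed libraries lie above all WT_Ex libraries in the cell cycle panel and between KO_Ex and WT_Ex in the ketone panel, and WT_Ex libraries overlap KO_Ex libraries in the panel of immediate early genes.

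Matrix genes rose almost throughout. Of 45 measured extracellular matrix and matricellular genes, 42 were higher in KO_Ex and 0 lower, against 17.9% of all genes, with a median log2 fold change of 1.59. Of these, 38 belonged to the combined state, beside 41.1% of all genes higher in KO_Ex. Medians of the single steps were 0.22 for both KO_Sed and WT_Ex against WT_Sed. List means ran over 1.196 to 2.37 in KO_Ex, 0.18 to 0.52 in KO_Sed, 0.00 to 0.53 in WT_Ex and -0.19 to 0.24 in WT_Sed libraries. The lowest KO_Ex library lay well above the highest of all other groups. The interaction was higher for 26 of the 45, against 2.32% of all genes. It was called for 17 without WT_Sed library 1, KO_Sed library 3 or KO_Ex library 1 or 4, for 15 without WT_Sed library 2 and for 16 without KO_Ex library 3. With the Arntl covariate it was called for 11. The median interaction of the list was 1.11 with all libraries and 0.90 without the high-Arntl libraries.

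Timp1, an inhibitor of matrix metalloproteases, was at 50.2, 14.5, 48.6, 57.7 and 17.6 FPKM in KO_Ex libraries 1 to 5, 2.57, 4.42, 4.22, 3.995 and 3.43 in KO_Sed, 1.41, 6.46, 3.65, 4.93 and 4.33 in WT_Ex and 1.66, 2.25, 1.31, 1.42 and 1.27 in WT_Sed. The KO_Ex libraries lay above all others, and KO_Ex libraries 2 and 5 held the lowest KO_Ex values. The joint change was 4.01 ± 0.36 (SE), limma adjusted p = 6.49e-08, with KO_Sed at 0.25 and WT_Ex at 0.26. Cilp, a cartilage and fibroblast matrix protein, was at 49.5, 14.4, 63.7, 91.5 and 17.8 FPKM in KO_Ex libraries 1 to 5, against 3.25, 5.07, 1.17, 3.11 and 2.17 FPKM in WT_Sed libraries, with the same pair of KO_Ex libraries lowest (3.58 ± 0.52 (SE), limma adjusted p = 1.91e-05).

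Prg4, a lubricating proteoglycan, was at 21.4, 8.21, 20.8, 15.6 and 14.6 FPKM in KO_Ex libraries 1 to 5, 1.39, 2.67, 2.67, 4.35 and 2.47 in KO_Sed, 2.65, 2.83, 2.62, 2.51 and 2.67 in WT_Ex and 2.96, 3.298, 2.004, 2.16 and 2.02 in WT_Sed. All 15 libraries outside KO_Ex were at 4.35 FPKM or less and all KO_Ex libraries at 8.21 FPKM or more (joint change 2.43 ± 0.23 (SE), limma adjusted p = 1.24e-07, places 0.03 and 0.04, interaction 2.26, limma adjusted p = 0.00462). Thbs1, which activates latent TGF-β, averaged 10.8 ± 2.52 FPKM in KO_Ex, 1.99 ± 0.481 in KO_Sed, 2.79 ± 0.635 in WT_Ex and 1.71 ± 0.624 in WT_Sed (SD, n = 5 each), with KO_Sed and WT_Ex at places of 0.08 and 0.26. Comp, a cartilage matrix thrombospondin, ranged over 15.3 to 74.04 FPKM in KO_Ex, 0.7295 to 7.43 in KO_Sed, 0.606 to 20.1 in WT_Ex and 0.713 to 2.19 in WT_Sed, and its WT_Ex values of 15.1 and 20.1 FPKM came from the libraries with high Myl7. Fstl1, a secreted glycoprotein of fibroblasts, rose by 1.87 on the log2 scale. Thbs4, a matrix protein of stressed heart, differed from these in that KO_Sed stood at 0.61 and was higher than WT_Ex by 1.87 ± 0.30 (SE) (limma adjusted p = 0.000505).

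Inflammatory genes went the same way, with 12 of 16 cytokine and chemokine genes higher, 1 lower and a median of 0.87, and 10 of the 13 called genes in the combined state. That class held 41.1% of all higher genes and 50.4% of all lower ones. Ccl8, a chemokine that draws monocytes, was at 39.5, 7.66, 16.8, 12.8 and 9.54 FPKM in KO_Ex libraries 1 to 5, against 1.096, 0.856, 0.228, 0.428 and 0.529 FPKM in WT_Sed libraries, without overlap (3.79 ± 0.40 (SE), limma adjusted p = 4.92e-07). Serpina3n, an acute-phase protease inhibitor, was at 105, 29.1, 104, 146 and 32.9 FPKM in KO_Ex libraries 1 to 5, 5.85, 9.47, 8.73, 8.396 and 8.28 in KO_Sed, 4.79, 10.1, 7.701, 8.57 and 7.97 in WT_Ex and 4.19, 5.24, 3.37, 3.92 and 2.16 in WT_Sed. The KO_Ex libraries lay above all others and KO_Ex libraries 2 and 5 were again lowest (4.06 ± 0.36 (SE), limma adjusted p = 5.8e-08). Socs3, the feedback inhibitor of IL-6 type signals, rose by 1.79 on the log2 scale. The places of the groups between differed, with KO_Sed at 0.00 and WT_Ex at 0.46.

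Marker lists moved beside these groups. Their counts stand beside 17.9% of all genes higher and 21.1% lower. Summed fibroblast markers ran over 1039 to 1507 FPKM in KO_Ex, 696.7 to 928.5 in KO_Sed, 624.4 to 1089 in WT_Ex and 599.4 to 773.2 in WT_Sed, and 9 of 10 were called higher in KO_Ex. Summed macrophage markers ran over 358.4 to 646.8 FPKM in KO_Ex, 267 to 302.5 in KO_Sed, 169.5 to 308.4 in WT_Ex and 162.7 to 240.5 in WT_Sed, with 9 of 10 measured called higher. Cardiomyocyte markers, by contrast, had 8 of 10 lower and 0 higher, a median of -0.58 (4 lower and 1 higher under TPM scaling). Their sum was 15488 to 17878 FPKM in KO_Ex and 22167 to 27815 FPKM in WT_Sed. No defining marker of these 3 lists had a median of 0 in any group. Endothelial markers had 4 of 10 lower, 0 higher and a median of -0.35, and under TPM scaling 1 lower, 2 higher and 0.01. Lymphocyte markers summed to 1.47 to 2.44 FPKM in KO_Ex and 1.24 to 3.12 FPKM in WT_Sed, in the same range. The part of cell makeup in the matrix, inflammatory and respiratory chain results was not tested.

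**Figure D5:**
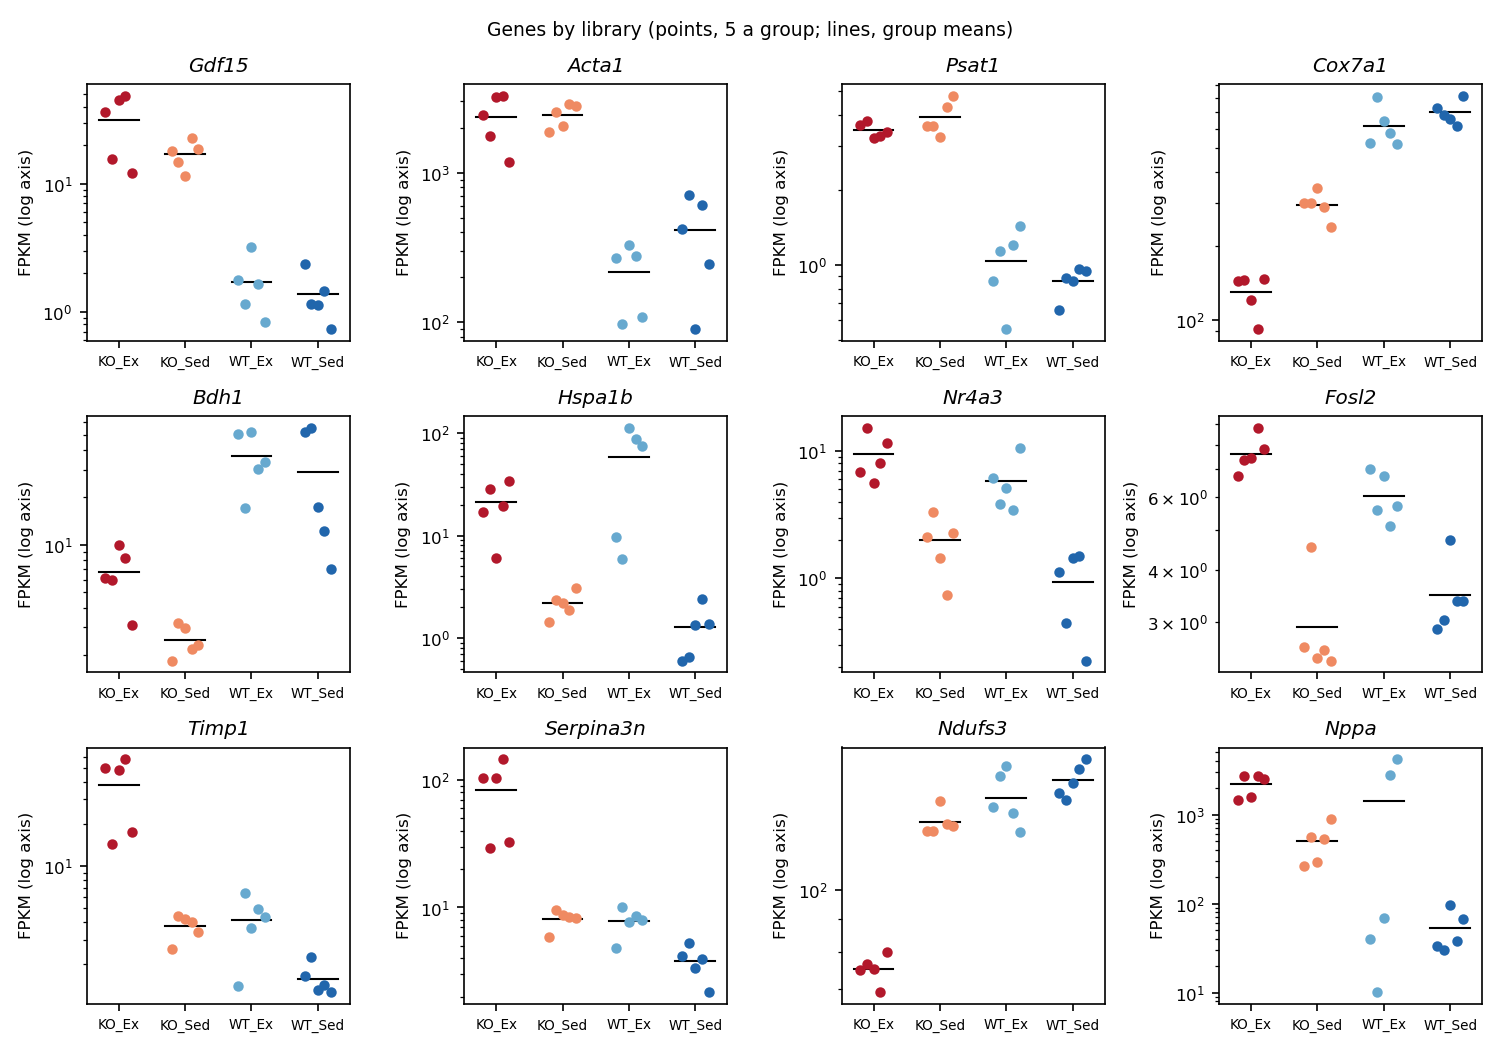
FPKM (log axis) of 12 genes in the 20 libraries (points, 5 a group, lines are group means). Gdf15, Acta1, Psat1, Cox7a1 and Bdh1 show KO_Sed near or beyond KO_Ex or midway, Hspa1b, Nr4a3 and Fosl2 show WT_Ex near KO_Ex, and Timp1, Serpina3n and Ndufs3 show KO_Ex libraries apart from the rest. Nppa reaches the KO_Ex range in WT_Ex libraries 4 and 5.

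The fetal and stress genes that failing or overloaded hearts switch on rose in 13 of 21 cases and fell in 3, with a median log2 fold change of 1.34. Here 8 of the 16 called genes stood near the KO_Ex end in KO_Sed alone, beside 24.98% of all higher and 19.46% of all lower genes. Acta1, the skeletal muscle actin of fetal heart, was at 2432, 1752, 3181, 3244 and 1186 FPKM in KO_Ex libraries 1 to 5, 1882, 2530.2, 2039, 2894 and 2783 in KO_Sed, 269.7, 97.4, 327, 276 and 109 in WT_Ex and 419.7, 709.9, 89.97, 608 and 246 in WT_Sed. KO_Ex and KO_Sed libraries overlapped fully and both lay above every wild-type library (2.73 ± 0.47 (SE), limma adjusted p = 0.000111, place of KO_Sed 1.04). Acta2, smooth muscle actin, averaged 482 ± 34.3 FPKM in KO_Ex, 378 ± 20.3 in KO_Sed, 142 ± 38.6 in WT_Ex and 82.6 ± 42 in WT_Sed (SD, n = 5 each), with KO_Sed at 0.87 and WT_Ex at 0.32. Summed markers of smooth muscle and pericytes, a list that includes Acta2, ran over 681.5 to 759 FPKM in KO_Ex, 569.9 to 647.6 in KO_Sed, 380.6 to 461.3 in WT_Ex and 335.8 to 407.9 in WT_Sed. Of the 9 measured, however, 3 were higher in KO_Ex and 3 lower, beside 17.9% and 21.1% of all genes. Their median log2 fold change was -0.099, so the sum does not show a shared rise of this list. Skeletal muscle markers, a list that includes Acta1, also moved with the label. Of 7 measured, 4 were higher in KO_Ex and 1 lower, and list means were 0.82 to 0.97 in KO_Ex, 0.94 to 1.98 in KO_Sed, -0.43 to 0.01 in WT_Ex and -0.54 to 0.19 in WT_Sed libraries. Tnnc2 of this list had a median of 0 in every group, Myh2 in every group but KO_Ex, and Myh1 in KO_Sed and WT_Sed. The part of skeletal muscle cells in these results was not tested.

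Nppa, the atrial natriuretic peptide, showed the largest joint change among called genes whose ends did not overlap and whose higher mean was at least 1 FPKM. It was at 1472, 2734, 1562, 2702 and 2528 FPKM in KO_Ex libraries 1 to 5, 262, 567, 291, 536 and 893 in KO_Sed, 39.9, 10.1, 69.7, 2806 and 4205 in WT_Ex and 33.8, 30.4, 95.7, 38.3 and 67.7 in WT_Sed. KO_Ex libraries were uniformly high, KO_Sed libraries lay between, and WT_Ex libraries 4 and 5, with high Myl7, reached or passed the KO_Ex range while the other WT_Ex libraries did not. The joint change was 5.45 ± 1.16 (SE), limma adjusted p = 0.000915. Without the high-Arntl libraries it was 4.96 and did not pass with 1 WT_Sed library (limma adjusted p = 0.15), and with the Arntl covariate it passed. Myh7, the slow myosin heavy chain of fetal heart, was at 348, 246, 436, 548 and 193 FPKM in KO_Ex libraries 1 to 5, 84.2, 107, 116, 165 and 112 in KO_Sed, 64.7, 76.3, 80.5, 69.1 and 66.3 in WT_Ex and 48.9, 76.4, 54.2, 79.4 and 89.7 in WT_Sed. It belonged to the combined state, with KO_Sed at 0.33 and WT_Ex at 0.03 (2.28 ± 0.24 (SE), limma adjusted p = 4.02e-07, interaction 1.47, limma adjusted p = 0.0152). The stretch-responsive LIM protein Fhl1 rose by 1.19 and the keratin Krt18 by 3.67 on the log2 scale, Krt18 with KO_Sed at 0.65 and WT_Ex at 0.35. Within WT_Ex, Krt18 was at 3.698, 3.76 and 2.26 FPKM in libraries 2, 4 and 5 and at 0.347 and 0.543 FPKM in libraries 1 and 3. Epicardial and mesothelial markers were high in the same WT_Ex libraries, with list means of 1.79 to 2.62 there and of -0.40 and 0.33 in libraries 1 and 3. The list mean was 0.46 to 2.05 in KO_Ex, -0.38 to 0.77 in KO_Sed and -0.13 to 0.11 in WT_Sed, 3 of its 7 measured genes were higher in KO_Ex and 0 lower, and its part in the Krt18 result was not tested. Ccn2, a matricellular growth factor, ranged over 172 to 321 FPKM in KO_Ex, 66.2 to 95.05 in KO_Sed, 32.5 to 271 in WT_Ex and 15.3 to 33.5 in WT_Sed, its highest WT_Ex value coming from library 5.

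Contractile genes moved less. Of 21 sarcomere genes 8 were lower and 1 higher, beside 21.1% and 17.9% of all genes. The median was -0.29, and under TPM scaling 3 were lower and 6 higher with a median of 0.08. List means were -0.25 to -0.13 in KO_Ex, 0.11 to 0.15 in KO_Sed, -0.12 to 0.04 in WT_Ex and -0.13 to 0.15 in WT_Sed libraries. In KO_Sed the list mean thus lay above the WT_Sed mean, unlike the level of Tnni3. Tnni3, cardiac troponin I, was at 686, 823, 701, 572 and 914 FPKM in KO_Ex libraries 1 to 5, 1335, 1324, 1697, 1331 and 1314 in KO_Sed, 1916, 2639, 2297, 2019.8 and 2011 in WT_Ex and 1869, 1993, 2172, 2156 and 2430.3 in WT_Sed. KO_Ex libraries lay below all others and KO_Sed libraries below all WT_Sed libraries (-1.53 ± 0.12 (SE), limma adjusted p = 1.97e-08, interaction -0.96, limma adjusted p = 0.00702). Myl2, the ventricular regulatory light chain, fell by 1.08 on the log2 scale, and Rpl3l, a ribosomal protein of striated muscle, fell by 2.15. Myl9, the light chain of smooth muscle and non-muscle myosin, rose by 2.74, and within the trained groups it was highest in the libraries with high Myl7, at 258 and 252.4 FPKM in that KO_Ex pair and 129 and 139.9 FPKM in that WT_Ex pair. Without the high-Arntl libraries the joint change of Myl9 was 2.42.

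Calcium handling and ion channel genes were lower in 15 of 29 cases and higher in 1, beside 21.1% and 17.9% of all genes. The median was -0.56, and under TPM scaling 7 were lower. Pln, phospholamban, which holds back the calcium pump of the sarcoplasmic reticulum, averaged 371 ± 59.1 FPKM in KO_Ex, 624 ± 29.1 in KO_Sed, 528 ± 76.4 in WT_Ex and 666 ± 67.2 in WT_Sed, and Hrc, a calcium-binding protein of that store, 144 ± 22.4 FPKM in KO_Ex, 258 ± 15.7 in KO_Sed, 357 ± 53.3 in WT_Ex and 402 ± 43.6 in WT_Sed (SD, n = 5 each). Kcne1, a subunit of the slow repolarising potassium channel, was the gene that rose. It was at 6.86, 4.102, 8.099, 6.97 and 6.37 FPKM in KO_Ex libraries 1 to 5, 7.11, 5.76, 6.07, 6.26 and 5.33 in KO_Sed, 0.948, 0.529, 0.728, 0.765 and 0.351 in WT_Ex and 1.63, 1.63, 1.31, 2.65 and 2.54 in WT_Sed. KO_Ex and KO_Sed shared a range, and WT_Ex libraries lay below every WT_Sed library, so that the place of WT_Ex was -0.70 and the interaction 1.12, limma adjusted p = 0.0138. Clcn1, the muscle chloride channel, was low throughout at 0.0568 to 0.798 FPKM in KO_Ex, 0.226 to 0.762 in KO_Sed, 2.03 to 3.54 in WT_Ex and 1.51 to 4.42 in WT_Sed, and WT_Ex stood in the WT_Sed range.

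Stress genes under ATF4, the transcription factor of the integrated stress response, were higher in 18 of 33 cases and lower in 3, with a median of 0.47. The shares over all genes were 17.9% higher and 21.1% lower. The list mean was 0.57 to 0.67 in KO_Ex, 0.18 to 0.47 in KO_Sed, 0.20 to 0.40 in WT_Ex and -0.13 to 0.17 in WT_Sed libraries, so both single changes lay between. Psat1, the second enzyme of serine synthesis, was at 3.67, 3.81, 3.23, 3.29 and 3.42 FPKM in KO_Ex libraries 1 to 5, 3.62, 3.61, 3.28, 4.33 and 4.78 in KO_Sed, 0.857, 1.13, 0.5499, 1.21 and 1.44 in WT_Ex and 0.658, 0.881, 0.864, 0.964 and 0.942 in WT_Sed. KO_Ex and KO_Sed overlapped, and both lay above every wild-type library (1.55 ± 0.13 (SE), limma adjusted p = 4.37e-08, place of KO_Sed 1.09). Mthfd2, a mitochondrial enzyme of the folate cycle, was at 5.602, 3.71, 4.27, 3.55 and 3.62 FPKM in KO_Ex libraries 1 to 5, 1.48, 1.83, 1.21, 2.37 and 2.02 in KO_Sed, 1.45, 0.996, 1.74, 1.66 and 1.35 in WT_Ex and 1.52, 1.79, 0.736, 1.08 and 0.491 in WT_Sed. It was high in KO_Ex alone (1.57 ± 0.20 (SE), limma adjusted p = 4.14e-06, places 0.34 and 0.20). Slc7a5, a carrier of large neutral amino acids, rose by 1.06 on the log2 scale with places of 0.44 and 0.48.

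Pycr1, which closes proline synthesis in mitochondria, rose by 0.96 ± 0.13 (SE) on the log2 scale (limma adjusted p = 1.1e-05) and averaged 1.27 ± 0.102 FPKM in KO_Ex, 0.5003 ± 0.148 in KO_Sed, 0.537 ± 0.212 in WT_Ex and 0.413 ± 0.0932 in WT_Sed (SD, n = 5 each). Its promoter is shown because it carries TGATGNAA, the core of the ATF4 element, in capitals here (chr11:120643699-120643998, minus strand, RefSeq GRCm38.p6, 5′ to 3′).
Pycr1: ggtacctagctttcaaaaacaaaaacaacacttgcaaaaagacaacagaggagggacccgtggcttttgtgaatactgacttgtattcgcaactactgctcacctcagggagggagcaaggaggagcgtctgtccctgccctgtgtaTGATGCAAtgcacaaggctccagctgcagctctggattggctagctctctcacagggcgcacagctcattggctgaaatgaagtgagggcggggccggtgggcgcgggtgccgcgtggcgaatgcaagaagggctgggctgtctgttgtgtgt
On either strand these letters stood in 217 of 9706 promoters (2.24%) and in 7 of 27 of the ATF4 list (25.9%), a list that was assembled from known ATF4 targets. The promoter of Gdf15 held no match. Serine, one-carbon and proline synthesis genes, part of which are also on the ATF4 list, were higher in 9 of 16 cases and lower in 2 (median 0.53), beside 17.9% and 21.1% of all genes.

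Of 20 p53 targets 11 were higher and 3 lower (median 0.46), beside 17.9% and 21.1% of all genes. Near the KO_Ex end in KO_Sed only stood 7 of the 14 called genes, beside 24.98% of all higher and 19.46% of all lower genes. List means were 0.41 to 0.69 in KO_Ex and 0.37 to 0.57 in KO_Sed, against -0.01 to 0.13 in WT_Ex and -0.10 to 0.12 in WT_Sed libraries. Perp, a membrane protein of desmosomes and cell death, was at 189.8, 142, 168, 175 and 156 FPKM in KO_Ex libraries 1 to 5, 212, 206, 194, 232 and 222 in KO_Sed, 82.7, 61.2, 75.3, 71.4 and 83.9 in WT_Ex and 93, 84.03, 92.1, 124 and 118 in WT_Sed. KO_Sed libraries were the highest and WT_Ex libraries the lowest, beyond each end (0.71 ± 0.11 (SE), limma adjusted p = 4.32e-05, places 1.51 and -0.62). Without the high-Arntl libraries the joint change of Perp was 0.49. Phlda3, an inhibitor of AKT, rose by 1.84 with places of 0.74 and 0.43. The unfolded protein response of the endoplasmic reticulum, by contrast, had 1 of 21 genes higher and 3 lower, with a median of 0.05. Its chaperone Hspa5 (BiP) averaged 113 ± 6.94 FPKM in KO_Ex, 142 ± 31.8 in KO_Sed, 128 ± 26.2 in WT_Ex and 178 ± 36.8 in WT_Sed (SD, n = 5 each), and its change of -0.63 did not pass under TPM scaling, with the Arntl covariate or without the high-Arntl libraries, where it was -0.45.

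Cell cycle genes rose in 20 of 22 cases and fell in 1 (median 0.80), beside 17.9% and 21.1% of all genes. Near the KO_Ex end in KO_Sed alone stood 14 of the 21 called genes, beside 24.98% of all higher and 19.46% of all lower genes. E2f1, which drives entry into DNA synthesis, was at 2.32, 2.16, 3.11, 3.34 and 1.99 FPKM in KO_Ex libraries 1 to 5, 1.49, 2.95, 1.43, 2.27 and 2.01 in KO_Sed, 0.855, 0.607, 0.932, 0.407 and 0.442 in WT_Ex and 0.291, 0.436, 0.296, 0.5897 and 0.6995 in WT_Sed. KO_Ex and KO_Sed libraries lay above every wild-type library (1.68 ± 0.18 (SE), limma adjusted p = 6.42e-07), and KO_Sed was higher than WT_Ex by 1.13 ± 0.18 (SE) (limma adjusted p = 0.00045). Ccnd2, a cyclin of the first gap phase, averaged 27.98 ± 6.96 FPKM in KO_Ex, 16 ± 3.18 in KO_Sed, 11.6 ± 3.098 in WT_Ex and 10.02 ± 1.62 in WT_Sed (SD, n = 5 each). List means were 0.45 to 1.07 in KO_Ex, 0.36 to 0.67 in KO_Sed, -0.06 to 0.32 in WT_Ex and -0.08 to 0.11 in WT_Sed libraries, and no KO_Sed library reached down to the WT_Ex range. Without the 5 high-Arntl libraries 5 of the 22 genes were higher and 1 lower, with a median of 0.66. The cells in which these genes rose cannot be told from bulk tissue, and summed macrophage and fibroblast markers are given above.

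A further group of genes stood near their KO_Ex level after training alone. Of 26 immediate early genes, which cells switch on within minutes of a stimulus, 18 were higher and 0 lower (median 1.09), and 13 of the 18 were near the KO_Ex end in WT_Ex only. Over all genes 20.9% of the higher ones were so placed. List means ran over 0.83 to 1.17 in KO_Ex, 0.03 to 0.52 in KO_Sed, 0.52 to 1.36 in WT_Ex and -0.23 to 0.28 in WT_Sed libraries. Nr4a3, an orphan nuclear receptor induced by exercise in muscle, was at 6.85, 15.3, 5.58, 8.01 and 11.7 FPKM in KO_Ex libraries 1 to 5, 2.12, 3.33, 1.44, 0.741 and 2.29 in KO_Sed, 6.15, 3.87, 5.15, 3.42 and 10.7 in WT_Ex and 1.12, 0.449, 1.43, 1.49 and 0.226 in WT_Sed. Every trained library lay above every sedentary library of either genotype. The joint change was 2.81 ± 0.35 (SE), limma adjusted p = 3.67e-06, and KO_Sed was lower than WT_Ex by 1.35 ± 0.35 (SE) (limma adjusted p = 0.016).

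Fosl2, an AP-1 subunit, was at 6.75, 7.36, 7.45, 8.81 and 7.82 FPKM in KO_Ex libraries 1 to 5, 2.61, 4.54, 2.46, 2.57 and 2.43 in KO_Sed, 6.99, 5.58, 6.75, 5.11 and 5.71 in WT_Ex and 2.89, 3.04, 4.73, 3.38 and 3.37 in WT_Sed. It was high in both trained groups, and KO_Sed libraries other than the second lay under all WT_Sed libraries (1.04 ± 0.14 (SE), limma adjusted p = 8.85e-06, places -0.22 and 0.69). Egr2, a zinc finger factor, was at 1.83, 1.23, 1.65, 1.44 and 1.33 FPKM in KO_Ex libraries 1 to 5, 0.369, 0.293, 0.437, 0.241 and 0.173 in KO_Sed, 0.147, 0.292, 0.212, 0.3303 and 1.37 in WT_Ex and 0.1798, 0.0919, 0.0859, 0.177 and 0.146 in WT_Sed. Its KO_Ex libraries were high, and elsewhere WT_Ex library 5 alone came into that range (1.65 ± 0.21 (SE), limma adjusted p = 3.54e-06). Myc, which drives growth genes, rose by 1.48 with places of 0.49 and 0.26. Without the 5 high-Arntl libraries 5 of 26 genes of this list were called, with a median of 0.63, and with the Arntl covariate 13 were higher and 1 lower.

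Among heat shock chaperones 8 of 18 were higher and 3 lower (median 0.17), beside 17.9% and 21.1% of all genes. Of the 11 called genes, 7 were near the KO_Ex end in WT_Ex only. Over all genes 20.9% of the higher and 15.15% of the lower ones were so placed. Hspa1b, an inducible HSP70, was at 16.8, 28.4, 6.08, 19.4 and 34.3 FPKM in KO_Ex libraries 1 to 5, 1.42, 2.36, 2.19, 1.87 and 3.05 in KO_Sed, 9.603, 5.92, 113, 88.01 and 74.6 in WT_Ex and 0.5995, 0.646, 1.33, 2.4 and 1.36 in WT_Sed. All KO_Ex libraries lay above all KO_Sed and WT_Sed libraries, and WT_Ex libraries 3 to 5 lay above every KO_Ex library. The joint change was 3.50 ± 0.65 (SE), limma adjusted p = 0.000271, and KO_Sed was lower than WT_Ex by 3.72 ± 0.65 (SE) (limma adjusted p = 0.000977). The nearly identical copy Hspa1a gave 3.54, and since short reads can be assigned to either copy the genes are uncertain one by one. The small heat shock protein Hspb1 rose by 0.77 and stood near the KO_Ex end in both other groups. Hspd1, the mitochondrial chaperonin, fell by 0.66. Without the high-Arntl libraries 2 of the 18 were called higher, and the joint differences of Hspa1a, Hspa1b and Hspb1 were then 3.48, 3.33 and 0.67, none past the test. With the Arntl covariate all 3 passed.

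The clock list had 6 of 19 genes higher and 2 lower, beside 17.9% and 21.1% of all genes, with a median of 0.18. It moved with the Arntl split, giving 0 higher and 1 lower without the 5 libraries and 1 higher and 3 lower with the covariate. Per2, a repressor of the clock, was at 10.1, 13.9, 5.38, 10.5 and 17.01 FPKM in KO_Ex libraries 1 to 5, 1.74, 10.5, 13.4, 11.4 and 12.4 in KO_Sed, 8.58, 18.2, 8.19, 18.9 and 22.2 in WT_Ex and 0.948, 1.32, 0.678, 2.91 and 9.204 in WT_Sed. The low values were those of WT_Sed libraries 1 to 4 and KO_Sed library 1, the libraries with high Arntl, and WT_Sed library 5 lay in the KO_Ex range. Its call (2.15 ± 0.55 (SE), limma adjusted p = 0.00388) was lost with the covariate and without those libraries, where the difference was 0.20. The time of day of tissue collection is not given in the labels, and its part in these results was not tested. Bhlhe40, a repressor that both the clock and cell stress induce, rose by 0.76 with WT_Ex at 0.81. Without the high-Arntl libraries its joint change was 0.34.

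Genes of angiogenic signalling were lower in 9 of 28 cases and higher in 0, beside 21.1% and 17.9% of all genes. The median was -0.23, and under TPM scaling 3 were lower and 8 higher with a median of 0.11. Vegfa, the main growth factor of vessels, averaged 68.8 ± 12.2 FPKM in KO_Ex, 79.5 ± 10.6 in KO_Sed, 108 ± 21.1 in WT_Ex and 112 ± 12.6 in WT_Sed (SD, n = 5 each) and did not pass under TPM scaling or without the high-Arntl libraries, where its change was -0.44. Aplnr, the receptor of apelin on endothelium, was at 7.54, 4.66, 7.73, 6.89 and 4.22 FPKM in KO_Ex libraries 1 to 5, 9.98, 9.04, 7.98, 8.45 and 6.77 in KO_Sed, 11.5, 7.93, 10.1, 4.91 and 4.95 in WT_Ex and 27.2, 24.9, 14.5, 10.96 and 19 in WT_Sed. Every WT_Sed library but the fourth lay above all libraries of the other groups, and both single changes stood near the KO_Ex end (-1.53 ± 0.25 (SE), limma adjusted p = 7.8e-05, places 0.71 and 0.82). Kdr, a receptor for VEGF, fell by 1.01 with places of 0.98 and 0.55. Without the high-Arntl libraries the joint change of Kdr was -0.59. Antioxidant enzymes had 12 of 23 genes lower and 4 higher (median -0.19), beside 21.1% and 17.9% of all genes. Under TPM scaling they had 5 lower and 10 higher (median 0.17).

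Other lists were mixed. Proteolysis genes and FoxO targets had 7 of 24 higher and 5 lower (median 0.16), and growth factor genes of cardiac hypertrophy had 10 of 24 higher and 5 lower (median 0.14). The shares over all genes were 17.9% higher and 21.1% lower, and the 5 lower genes of each list are near the latter. Il15, a cytokine of muscle, was at 3.56, 4.88, 3.33, 3.24 and 5.58 FPKM in KO_Ex libraries 1 to 5, 6.68, 6.38, 8.92, 7.27 and 5.34 in KO_Sed, 15.7, 17.7, 13.8, 12.8 and 16.7 in WT_Ex and 11.2, 9.48, 17.04, 14.1 and 16.6 in WT_Sed. The KO_Ex libraries and all KO_Sed libraries lay below every wild-type library (-1.61 ± 0.17 (SE), limma adjusted p = 4.57e-07, place of KO_Sed 0.57). Aqp8, a water and peroxide channel, averaged 13.4 ± 2.93 FPKM in KO_Ex, 11.1 ± 3.42 in KO_Sed, 1.45 ± 1.02 in WT_Ex and 2.21 ± 1.04 in WT_Sed (SD, n = 5 each), again with KO_Sed near KO_Ex, and KO_Sed was higher than WT_Ex by 2.70 ± 0.35 (SE) (limma adjusted p = 8.4e-05). By the same conditions the largest fall was in Gm15543, a gene annotated as an antisense RNA, at 3.14, 7.097, 1.83, 2.49 and 7.11 FPKM in KO_Ex libraries 1 to 5, against 39.2, 38.1, 39.8, 26.1 and 32.3 FPKM in WT_Sed libraries. KO_Sed stood at 0.89 on its scale. Whether the counting used strand is not given in the sources used here, so reads of this gene and of its partner on the other strand cannot be told apart.

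A few genes moved in even steps, with KO_Sed and WT_Ex each about midway. Acot1, a thioesterase that frees fatty acids from coenzyme A, averaged 2.14 ± 0.715 FPKM in KO_Ex, 4.72 ± 1.57 in KO_Sed, 4.52 ± 0.984 in WT_Ex and 8.996 ± 2.63 in WT_Sed (SD, n = 5 each), with places of 0.47 and 0.49. The cardiac long noncoding RNA Chaer1 averaged 0.839 ± 0.429 FPKM in KO_Ex, 1.79 ± 0.194 in KO_Sed, 2.21 ± 1.31 in WT_Ex and 4.197 ± 0.628 in WT_Sed (SD, n = 5 each), with places of 0.55 and 0.50. In a few other genes the means of both single-change groups lay beyond the KO_Ex mean. Depp1, a FoxO target, was at 34.5, 31.1, 33.9, 55.9 and 41.2 FPKM in KO_Ex libraries 1 to 5, 27.6, 77.5, 66.5, 37.7 and 86.9 in KO_Sed, 54.2, 102, 83.4, 44.7 and 41.03 in WT_Ex and 9.45, 19.96, 20.1, 51.7 and 22.1 in WT_Sed. WT_Sed libraries other than the fourth lay below all other libraries, and the highest values were in KO_Sed and WT_Ex. The joint difference of 0.84 did not pass the test (limma adjusted p = 0.0851), and the interaction was -1.99, limma adjusted p = 0.0307. Arrdc2, an arrestin-like gene, showed the same order, with a joint difference of 0.47 (limma adjusted p = 0.473) and an interaction of -2.36, limma adjusted p = 0.0421, and in both genes the interaction was lost under many of the alternatives.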

How the data were processed

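Heart RNA of 20 mice was measured, 5 in each of 4 groups taken from the sample titles. The authors deposited FPKM values in 1 table of 25851 genes. Genome mm10 and the tools featureCounts 1.5.0-p3, HISAT2 2.0.5 and DESeq2 1.20.0 are named, per the submitters' processing notes, and their roles are not given in the sources used here. FPKM times GENCODE exon length gave whole reads, within 0.01 reads, for 24971 genes (96.6%), and the library sizes behind the deposited FPKM followed median-ratio size factors, so no further scaling was applied. Genes that were not whole held 5.36% of reads.

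In R 4.3.3, limma 3.58.1 estimated the mean of log2(FPKM + 0.5) in all 4 groups together, with a variance trend and tests of either sign, for the 13723 genes with a mean of at least 0.5 FPKM, and 12128 genes were left out. P-values were adjusted by Benjamini-Hochberg over all genes tested, with a threshold of 0.05, and measure the spread between mice of 1 cohort. Fold changes are on the log2(FPKM + 0.5) scale, which understates the change of low genes. Exact permutation was added for Gdf15 and Ppargc1a. Recovered reads were tested with limma voom as an alternative. The fit was tested on simulated data. Python 3.11.15, pandas 2.3.3, numpy 2.4.6 and matplotlib 3.10.9 made the tables and figures.

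Members, gene lists and tests were chosen with earlier results of these data known. Named genes are Ppargc1a, Gdf15, the 10 largest joint changes in each direction without overlap, up to 4 members of each list in order of p, the 5 largest KO_Sed against WT_Ex changes in each direction among genes with a joint change, the 5 largest interactions in each direction, the 5 most even steps in each direction and the library markers, of which the text gives a part, and some are not reported here. Atp5g3 is outside this rule and was chosen for its promoter after its values were seen. Alternatives covered pseudocount, filter, scaling, fitting, a replicate block, covariates and libraries left out.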

Additional observations from a re-analysis of the deposited data

Results flagged for a closer look

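In 16 cases 1 library stood far from the other 4 of its group, by the ratio of its gap to the group's range. Chance gives such a ratio in about 1 in 20 groups. Every gene named in the text was examined in each of the 4 groups, so such cases would also be found by chance alone. Whether there were more than that was not tested, and they are listed as values. In KO_Sed, library 3 had the highest Hadh (93.6 FPKM), Ldhb (914 FPKM), Ndufs3 (137.8 FPKM) and Tnni3 (1697 FPKM), all genes that fell in KO_Ex. KO_Sed library 4 had the highest Cilp (16.3 FPKM), library 2 the highest Fosl2 (4.54 FPKM), and library 5 the lowest Thbs1 (1.14 FPKM). KO_Sed library 1 had the lowest Serpina3n (5.85 FPKM), the lowest Per2 (1.74 FPKM) and the highest Arntl (2.504 FPKM). In WT_Ex, library 2 had the highest Ccl8 (3.88 FPKM) and Pfkfb1 (10.5 FPKM) and the lowest Ccnd2 (6.402 FPKM), and library 5 the highest Egr2 (1.37 FPKM). In WT_Sed, library 1 had the lowest Myl9 (12.3 FPKM) and library 5 the lowest Arntl (0.0658 FPKM).

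An interaction, a genotype difference that differed between trained and sedentary hearts, was called for 31 named genes at a limma adjusted p under 0.05. Over all genes tested 2.32% were called higher and 5% lower. Some of the named genes were picked by the size of their interaction or joint change, so the count of 31 is not a result about them. The values that follow are interactions on the log2 scale. Among matrix and inflammatory genes they were 2.93 for Cilp, 2.54 for Ccl8, 2.26 for Prg4, 2.05 for Serpina3n, 1.93 for Timp1, 1.58 for Thbs1 and 1.44 for Fstl1. Among stress, contractile and channel genes they were 1.47 for Myh7, 1.12 for Kcne1, 0.766 for Fhl1, 0.671 for Pycr1, -0.677 for Hrc, -0.963 for Tnni3 and -1.01 for Rpl3l. Among respiratory chain genes they were -0.993 for Cox7a1, -0.662 for Ndufs3, -0.654 for Atp5g3, -0.591 for Uqcrfs1, -0.578 for Ndufb4, -0.542 for Ndufa9 and -0.506 for Atp5b, with -0.371 for Esrra. Among genes of fuel use they were -0.722 for Ldhb, -0.684 for Mpc2, -0.64 for Mdh2, -0.639 for Ckmt2, -0.516 for Ivd and -0.443 for Echs1. Il15 had -0.881, Depp1 -1.99 and Arrdc2 -2.36. With the 5 high-Arntl libraries left out, and so with 1 WT_Sed library, 1 interaction in all passed over the genes tested.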

How the results depend on the processing

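The joint counts, 2450 higher and 2898 lower, moved by more than 1.5 times under scaling and without the high-Arntl libraries: 6452 and 1017 with TPM, 3691 and 1640 with a common sum without mitochondrial transcripts, and 1083 and 1609 without the 5 libraries. Leaving out 1 library at a time gave 2134 to 2520 higher and 2540 to 2978 lower. For KO_Sed against WT_Ex, array weights gave 1575 higher and 1276 lower, and TPM and the common sum gave 427 and 508 lower. The 1005 interactions became 629 without a filter, 406 with TPM, 5041 with array weights, 1 without the high-Arntl libraries, where WT_Sed holds 1 library, 267 with the Arntl covariate, and 480 to 1698 with 1 library left out. The median place of KO_Sed among lower genes, 0.365, became 0.388 without a filter, 0.329 at a mean of at least 2 FPKM, 0.462 with TPM, 0.488 with the common sum, 0.398 with array weights, 0.308 without the high-Myl7 libraries and 0.330 with the Arntl covariate, and 0.331 to 0.417 with 1 library left out. Except for the scalings and the libraries left out, whose construction shows the change, the cause was not tested.

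Gdf15 and Ppargc1a kept direction and call under every alternative run. Of 141 results on named genes none reversed, and calls were lost 118 times outside the leave-one-out fits, of which 46 came without the high-Arntl libraries, and 103 times in the leave-one-out fits. Whether replicate numbers pair the samples is not settled by these values. Same-number libraries correlated at -0.28 to 0.48 over 30 pairs, and 5 of 20 libraries correlated best with their own number. Pairs of libraries numbered 1 correlated at 0.25 to 0.36 and those numbered 5 at 0.08 to 0.48. Pairs of every other number held both signs. With a replicate block 2618 genes were higher and 3111 lower, 2417 and 2856 of them shared with the fit without it. Depth limits low genes, and under 0.5 FPKM none was tested.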
